A study of Mus musculus with 6 samples.

Results

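Passenger strands are the miRNA strands that older nomenclature marks with an asterisk, and they were followed with and without transforming growth factor beta (TGFβ) in MCT cells. These are a line of renal tubular cells from SJL mice (H-2S). Members were all mouse entries of the array whose name ends in an asterisk, 115 of 611 mouse entries. For 93 of them the same name without the asterisk was also on the array and served as the guide reference. Of the other 22, 19 carry a locus number (miR-135a-1* and the like) that the guide entry lacks, and 3 had no guide entry under either name. The series holds 6 one-colour arrays, 3 of control MCT cells and 3 of the same line after 72 hours with 3 ng/ml TGFβ. Both groups were kept in low-serum medium, and the only labelled difference is the cytokine. The labels do not say whether replicates came from separate cultures, so the spread behind each p-value is that of these samples only and may be technical. Of 10 tubule marker miRNAs only miR-30a was well above background on any array, while none of 6 blood cell, 2 endothelial and 5 mesenchymal markers was, and 1 of 4 muscle markers, miR-206, was.

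A miRNA hairpin is cut by Dicer into a short duplex of both arms. Argonaute keeps one strand, the guide, and the other, the passenger or star strand, is usually degraded. Strand choice is known to favour the strand whose 5′ end is paired less stably, and Argonaute is known to prefer a 5′ U or A. Star strands are therefore usually rare, but some are loaded and repress targets of their own, because their seed (bases 2 to 8) differs from that of the guide.

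The star strands that gave signal are shown 5′ to 3′ with the seed in capitals, as RefSeq lists them (GRCm38.p6). The guides of miR-30a*, miR-674* and miR-31* are shown too. No guide sequence was matched for miR-140*, and the guide of miR-135a-1* is not shown. The arm of each star was assigned from the naming of these miRNAs.
miR-30a*: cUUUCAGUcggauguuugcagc
miR-30a: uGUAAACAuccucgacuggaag
miR-674*: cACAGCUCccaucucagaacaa
miR-674: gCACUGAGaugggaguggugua
miR-140*: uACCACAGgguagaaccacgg
miR-31*: uGCUAUGCcaacauauugccauc
miR-31: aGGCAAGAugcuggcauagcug
miR-135a-1*: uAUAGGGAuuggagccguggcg
Each star with its guide listed here has another seed than that guide. The brightest star on 5 of 6 arrays (all but TGFβ 1), miR-30a*, comes from the 3′ side of the hairpin below, in which the capitals mark the guide (first) and the star (second).
Mir30a hairpin: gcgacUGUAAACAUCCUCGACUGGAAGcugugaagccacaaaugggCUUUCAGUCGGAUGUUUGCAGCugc

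Among all members, 101 of 115 had a RefSeq mature sequence, 65 from the 3′ arm and 36 from the 5′ arm, and for 95 the guide was found too. Over these 95 pairs, 57.9% of guides and 18.9% of stars begin with U, and 36.8% of stars and 9.47% of guides begin with C. The guide has more A or U among its first 4 bases than the star in 46 pairs, fewer in 22 and as many in 27. The median GC content was 50% for stars and 43.5% for guides. Few members can stand in for each other by seed, since the 101 sequences hold 92 distinct seeds and 8 seeds are shared, by 17 members. One shared seed joins let-7a-1*, let-7b* and let-7f-1*, and another joins miR-30a* and miR-30e*.

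MCT cells gave little star signal in either group. A miRNA was called well above background on an array where at least 0.5 of the spots of any of its probes carried that software flag. Each member was read by 20 spots over 2 to 4 probes. By this rule controls 1 to 3 held 1, 2 and 1 such star entries, and TGFβ arrays 1 to 3 held 4, 2 and 2. The groups overlap, with 1.33 ± 0.58 per control array and 2.67 ± 1.15 per TGFβ array (SD, n = 3, exact two-sided permutation p = 0.3, where 3 arrays against 3 cannot go below 0.1). In all, 4 members (3.48%) were well above background on at least 1 array: miR-30a*, miR-674*, miR-140* and miR-135a-1*. Without TGFβ array 1 there were 2, miR-30a* and miR-674*. Over all mouse entries the share was 17.5%, and over the 496 entries without an asterisk it was 20.8%. No star entry was well above background on all 6 arrays, against 70 other entries.

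**Figure D1:**
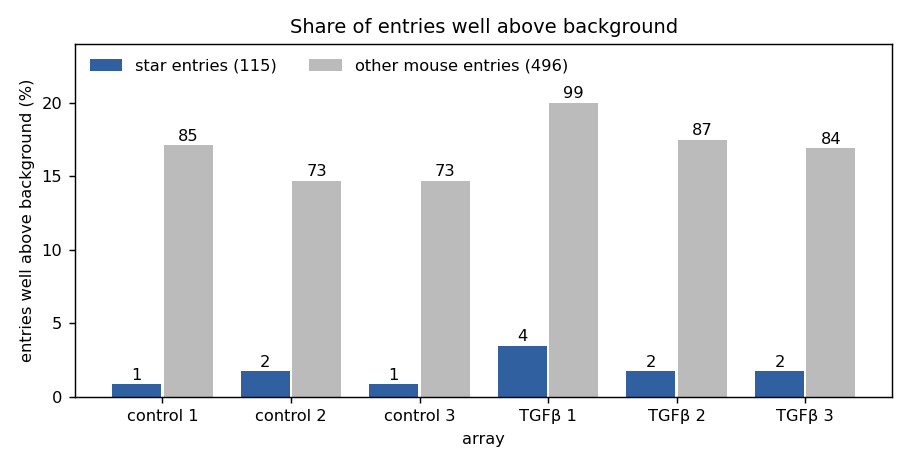
Percentage of star entries and of other mouse entries well above background on each of the 6 arrays, with the number of entries above each bar. Star entries lie between 0.87% and 3.48% and the other entries between 14.7% and 20%.

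Feature Extraction also gives its own detected call per miRNA, which marked more members. It marked 11 star entries on at least 1 array and miR-30a*, miR-674* and miR-31* on all 6, against 25% of the other entries on at least 1 array. The 7 that only this call marked were miR-31*, let-7b*, let-7f-1*, miR-191*, miR-29b-1*, miR-30c-1* and miR-450a-2*. The remaining 104 members carried neither call, and the median over arrays of their scaled signal lay between -7.25 and 6.4 intensity units, with 47 of them at the floor of 1 unit on all 6 arrays. For comparison, the dimmest probe well above background read between 19.4 and 36.4 units, depending on the array. That is the signal of a single probe, while the signal of a member is a mean over its probes. By that mean miR-674* was well above background at 7.47 units on TGFβ 1 and 13.5 on control 2. These 104 members were not detected by either call, which does not show that the strands are absent.

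The guides of many stars that were not well above background were bright. The guide was well above background on all 6 arrays in 28 of 93 pairs, and in 26 of them the star was not well above background on any array. Both strands were found in 2 pairs, the star alone in 1, the guide alone in 29 and neither in 61. For the 26 pairs the guide signal was set against the star's own signal or, if higher, that of the dimmest probe well above background on the same array. The mean of these log2 differences over the 6 arrays gives the fold below, a lower bound of the mean signal ratio and not of each array's. Probes of different sequence bind with different strength, so this is a ratio of signals and not of copies. The widest gap was that of miR-21, a miRNA raised in injured and fibrotic kidney. The guide read between 2208 and 4194 units, miR-21* between -3.93 and 1.63, and the guide signal was on average at least 126-fold higher (67.6-fold to 195-fold on single arrays). For let-7b, of the let-7 family that restrains proliferation, the bound was at least 61.6-fold, for miR-29a, which targets collagen mRNAs, at least 43.8-fold, for miR-15b at least 39.9-fold and for miR-22 at least 35.7-fold. Next came let-7i (17.8), let-7d (15.5), miR-27a (12.4), miR-10a (11.8) and miR-31 (10.6), each as a lower bound in fold. The bound was above 10 in 11 pairs and above 1 in 23, and for miR-27b, miR-26b and miR-10b the guide was itself too dim to give a fold. The sequences show the strand that was bright beside the one that was not for the leading pairs.
miR-21: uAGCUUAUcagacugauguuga
miR-21*: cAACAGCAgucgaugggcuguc
let-7b: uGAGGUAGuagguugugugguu
let-7b*: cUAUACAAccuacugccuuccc

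**Figure D2:**
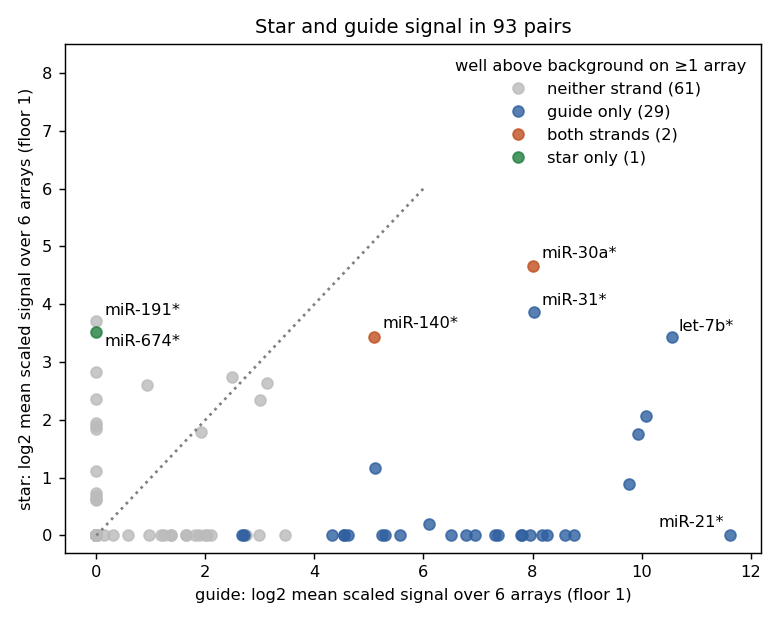
Mean scaled signal of the star (vertical) against that of its guide (horizontal) over 6 arrays, both log2 with values under 1 unit set to 1, for the 93 pairs, coloured by which strand was well above background on at least 1 array. The dotted line marks equal signal. Guides reach 3144 units at miR-21, while no star of a pair exceeds the 25.1 units of miR-30a*.

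miR-30a* was the clearest star in MCT cells. It comes from the same hairpin as miR-30a, of a family abundant in kidney epithelium. Its scaled signal was 13.0, 39.7 and 42.6 units on controls 1 to 3 and 18.5, 15.9 and 21.3 on TGFβ arrays 1 to 3. Controls 2 and 3 read above every TGFβ array and control 1 below every one, so the groups overlap. It was well above background on the 5 arrays other than control 1. The log2 signal was 4.81 ± 0.96 for control and 4.20 ± 0.21 for TGFβ (SD, n = 3). The difference was -0.60 (SE 0.48, limma adjusted p = 0.505 over 84 miRNAs tested). Both probes followed this order of groups. The brighter one averaged 47.6 units in control and 27.9 in TGFβ-treated cells, with 21 of 27 and 23 of 28 spots well above background, and the dimmer one 15.9 and 9.27 units. Of the 84 miRNAs, 0% were called with all 6 arrays in limma (8 had an unadjusted p under 0.05), so none of the 2 tested stars, miR-30a* and miR-674*, was called. The groups did not overlap for 14.3% of the 84 (5.95% lower with TGFβ), and for 0 of the 2 stars. These 84 are the 13.7% of mouse entries well above background on all 3 arrays of a group, a filter that 1.74% of star entries passed.

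Single control arrays move this value by over 1.5 times, and control 1 decides the call. Over the 84 tested miRNAs the median absolute log2 difference of control 1 was 0.16 from TGFβ 3 but 0.48 and 0.52 from controls 2 and 3. Without control 1, miR-30a* fell by 1.16 on the log2 scale, to 0.447 of its level on controls 2 and 3 (SE 0.17, limma adjusted p = 0.0157), and it was the 1 star called. In that fit 36.5% of 85 miRNAs were called, 23.5% in the lower direction, and the adjusted p does not allow for the choice of the array left out. The difference was -0.35 without control 2 and -0.30 without control 3 (limma adjusted p = 0.904 and 0.923). Within slide column 1, TGFβ 2 minus control 1 was 0.29 for miR-30a*, and within column 2, TGFβ 3 minus control 2 was -0.89. The limma adjusted p of miR-30a* ranged from 0.0157 to 0.976 over the alternatives. In RNA from whole cultures, fewer cells carrying a strand and less of it per cell cannot be told apart.

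The guide moved with its star. miR-30a read 199, 373 and 392 units on controls 1 to 3 and 247, 153 and 187 on TGFβ arrays 1 to 3, again with control 1 among the TGFβ arrays. Its 2 brighter probes averaged 747 and 196 units in control and 447 and 122 in TGFβ-treated cells. The dimmest averaged 20.1 and 18.2, and its highest array was TGFβ 1 (33.7). The percentages below rest on the mean over these probes. Its log2 difference was -0.68 (SE 0.33, limma adjusted p = 0.391), and without control 1 it was -0.998 (SE 0.22, limma adjusted p = 0.0264). The star signal was 6.53%, 10.6% and 10.9% of the guide signal on controls 1 to 3 and 7.49%, 10.4% and 11.4% on TGFβ arrays 1 to 3. On the log2 scale the ratio was -3.46 ± 0.42 for control and -3.38 ± 0.32 for TGFβ (SD, n = 3). The difference of 0.08 was smaller than the spread in either group (exact two-sided permutation p = 0.7), and scaling between arrays cancels in it. It lay between -0.16 and 0.25 with each array left out in turn, and the sign changed with the array. Between same-numbered arrays it differed by 0.20, -0.04 and 0.07. Control 1 and TGFβ 1 had the lowest ratios. Within slide column 1 the ratio differed by 0.67 and within column 2 by 0.10. This was the only one of 93 pairs in which both strands were well above background throughout at least 1 group. That filter left 0 of 62 hairpins whose arms are on the array under -5p and -3p names, so no ratio of such arms could be set beside it.

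miR-30e* differs from miR-30a* at a single base, G18A (miR-30a* base first, counted from the 5′ end), and shares its seed.
miR-30e*: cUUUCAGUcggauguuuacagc
It carried neither call on any array, with 1.94, 6.64 and 10.8 units on controls 1 to 3 and between 3.39 and 3.97 on the TGFβ arrays. Controls 2 and 3 were its highest arrays, as they were for miR-30a*. Whether the 2 probe sets read each other's strand was not tested. The other family members miR-30b*, miR-30c-1* and miR-30c-2* also stayed under that level throughout, and only miR-30c-1* was marked detected, on 1 array. Their medians over the 6 arrays were 6.33, 4.09 and 5.48 units, and the highest single reading of the 3 was that of miR-30c-2* on control 3. Of the 11 star entries with the detected call on any array, 7 (63.6%) read lower on control 1 than on both other controls, against 46% of 124 other entries with that call. With arrays left unscaled these shares were 54.5% and 22.6%.

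**Figure D3:**
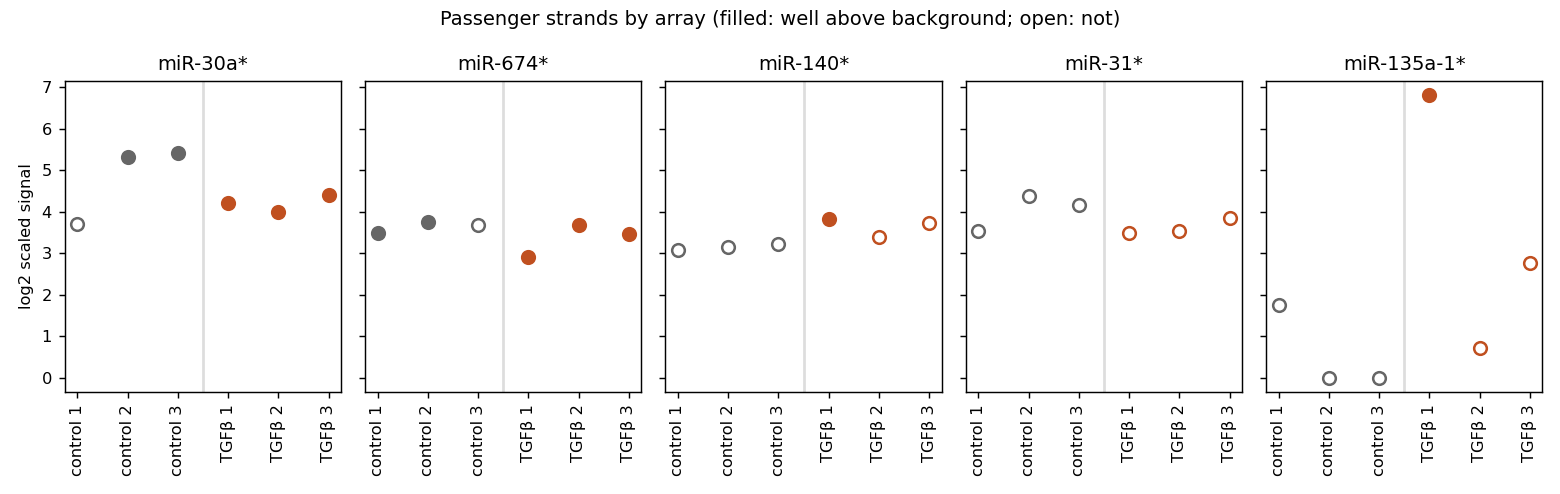
Log2 scaled signal of 5 star entries on each array (controls grey, TGFβ orange), filled where the entry was well above background. Control 1 lies apart from controls 2 and 3 for miR-30a*, and miR-135a-1* is high on TGFβ 1 only, at 6.81.

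miR-674* was measured while its guide was not. Its log2 signal was 3.49, 3.75 and 3.68 on controls 1 to 3 and 2.90, 3.68 and 3.46 on TGFβ arrays 1 to 3, and was well above background on 5 arrays, all but control 3. The groups overlap, and TGFβ 1 was the lowest array. The entry without the asterisk, miR-674, lay between -2.60 and 1.24 units and was not well above background on any array. The log2 signal of miR-674* was 3.64 ± 0.14 for control and 3.35 ± 0.40 for TGFβ (SD, n = 3). The difference was -0.29 (SE 0.23, limma adjusted p = 0.505), but 0.05 when arrays were left unscaled and -0.07 without TGFβ 1. It was larger with quantile normalization (-0.53) and without TGFβ 2 (-0.46). With the slide row as a block it was -0.74. Slide row 1 holds all controls but only TGFβ 1 of the treated arrays, so that value compares TGFβ 1 alone with the controls. Within slide column 1 it was 0.19 and within column 2 it was -0.29. The signal came from 1 of 3 probes, which averaged 29.0 units in control and 22.2 in TGFβ-treated cells with 8 of 18 and 11 of 18 spots well above background, so the entry sits at the edge of detection. No ratio to the guide is given, because the guide was not measured. miR-191*, whose guide is often used as a reference miRNA, also read above its guide, but was not well above background on any array. It read 7.42, 18.3 and 20.7 units on the controls and 12.3, 5.72 and 13.8 on the TGFβ arrays. The detected call marked miR-191* on control 3 and TGFβ 3, while miR-191 lay between -7.04 and -2.94 units. Other pairs with neither strand well above background also had the star above the guide, miR-877* and miR-17* among them, while in further ones it read below. The order of strands in such pairs was not tested.

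miR-140* had signal near background, and its ratio to its guide enters only through the TGFβ arrays. miR-140 is known from cartilage, where it is processed from an intron of Wwp2. The star read 8.48, 8.92 and 9.41 units on controls 1 to 3 and 14.2, 10.5 and 13.3 on TGFβ arrays 1 to 3, so every TGFβ array was above every control. It was well above background on TGFβ 1 only and marked detected on 4 arrays, 1 of 3 controls and all 3 TGFβ arrays. It met the filter through the group in which it is higher, so the lack of overlap is partly set by that choice and is given as a description without a test. The guide was well above background on all 6 arrays, with 27.9, 38.1 and 41.8 units on controls and 37.7, 22.3 and 36.8 on TGFβ arrays, and its groups overlap. The log2 ratio of star to guide was -1.72, -2.10 and -2.15 on controls 1 to 3 and -1.40, -1.08 and -1.46 on TGFβ arrays 1 to 3. The means were -1.99 ± 0.24 for control and -1.32 ± 0.20 for TGFβ (SD, n = 3), 0.67 apart. It was 0.63 in each of the slide columns that hold both groups and 0.81 without control 1.

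That pair enters only under the software's detected call, a filter chosen after the values were seen, which admits 3 pairs and 95 miRNAs. Of these 95, 15.8% had groups that do not overlap, 9.47% in the higher direction, and 0% were called in limma. There miR-140* differed by 0.50 (SE 0.17), also given without a test, and miR-140 by -0.17 (SE 0.28, limma adjusted p = 0.737). The ratio difference was 0.43 with only the brighter probe of each strand, 0.06 with normexp background correction, whose added offset shrinks dim signals, and 2.80 with the software's total gene signal, where miRNAs not detected are set to a constant. In all 3 of these settings the groups overlapped. The brighter miR-140* probe averaged 17.5 units in control and 20.8 in TGFβ-treated cells, and the dimmer one 0.33 and 4.56.

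miR-31* and miR-31 went in opposite directions without passing a test. miR-31* carried the detected call on all 6 arrays but was not well above background on any. It read 11.7, 20.8 and 18.0 units on controls 1 to 3 and 11.2, 11.6 and 14.5 on TGFβ arrays 1 to 3, with control 1 again among the TGFβ arrays. The guide read 255, 221 and 221 units on controls and 341, 270 and 252 on TGFβ arrays. The log2 difference was -0.41 (SE 0.26, limma adjusted p = 0.452) for the star and 0.30 (SE 0.17, limma adjusted p = 0.452) for the guide, in the fit of 95 miRNAs. Their log2 ratio was -3.83 ± 0.55 for control and -4.53 ± 0.41 for TGFβ (SD, n = 3), and its difference was -0.71 (exact two-sided permutation p = 0.2). The groups overlap through control 1, and without it the difference was -1.02. Between same-numbered arrays the ratio differed by -0.48, -1.12 and -0.51, the same direction in 3 of 3 pairs (exact sign-flip p = 0.25, the smallest that 3 pairs allow), and miR-31 by 0.42, 0.29 and 0.19. Within slide column 1 it was -0.09 and within column 2 -0.71.

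**Figure D4:**
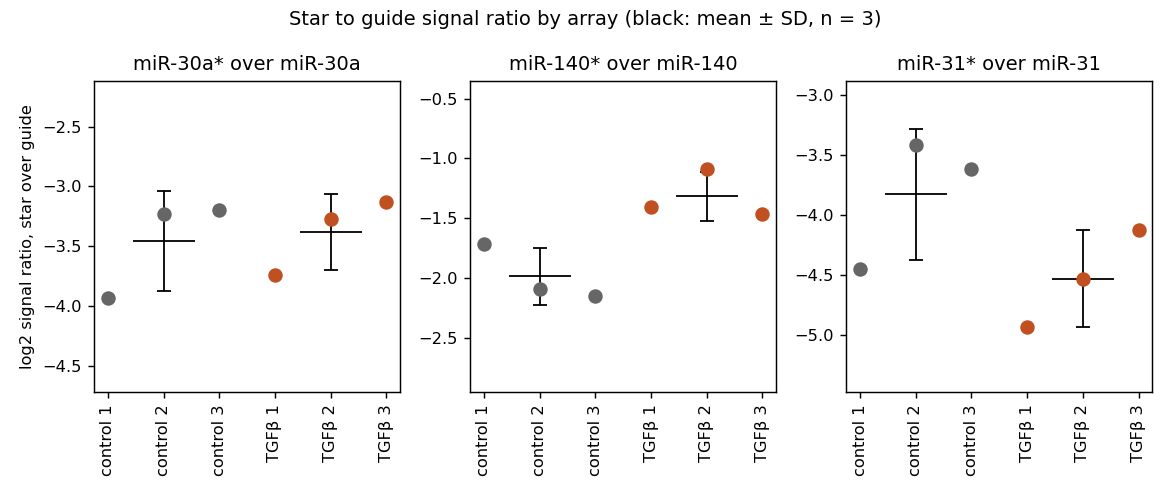
Log2 ratio of star signal to guide signal on each array for the 3 pairs whose strands both carried the software's detected call throughout at least 1 group, with the mean and SD of each group in black (n = 3). Each panel spans the same range in log2 units. The groups overlap for miR-30a* and miR-31*, and do not for miR-140*, which carried that call throughout the TGFβ group only.

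miR-135a-1* was well above background on a single array and carried the detected call on 1 more. It read 112 units on TGFβ 1, where all 5 spots of each of its 4 probes were well above background, and between -0.74 and 6.78 units on the other 5 arrays. The guide entry miR-135a lay between 2.88 and 6.89 units and was not well above background on any array. On TGFβ 1, 15 mouse entries were well above background and exceeded every other array by 2 log2 units or more, and miR-135a-1* was the only star among them. No other array carried such an entry. With 1 of 3 TGFβ arrays measured, the entry was not tested.

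By family, no listed group but miR-30 held a star well above background, which with 3.48% of all stars above it sets none of these small groups apart. Of 5 miR-30 stars 1 was, miR-30a*, and its guide passed on each of the 6 arrays. Of 7 let-7 stars none was well above background, although the guide was on all 6 arrays in each of the 4 let-7 pairs. The let-7 star with the highest mean was let-7f-1*, between 9.06 and 18.3 units and marked detected on 2 arrays. Of 8 stars listed with the miR-17/92 and miR-106b/25 clusters, which promote proliferation, none carried either call. The list also holds miR-20b* and miR-92a-2*, whose hairpins lie on chromosome X, outside both clusters. Over the whole list 4 of 7 guides were well above background on all arrays. Its highest star, miR-17*, lay between 0.87 and 8.42 units. None of 3 miR-29 stars and 4 stars of the miR-23/27/24 clusters was well above background, while 2 of 2 guides were in each family. miR-29b-1* reached 7.86 units and miR-24-1* 8.81. miR-34c*, the only miR-34 star, lay between -7.68 and 2.61 units beside a guide well above background on all arrays. The miR-200 family, which holds cells in an epithelial state, gave neither guides nor stars. Of its 4 guides, 0 were well above background on all arrays. Its star with the highest mean, miR-141*, stayed between -3.77 and -0.59 units, and miR-200c* reached 0.72 on control 1.

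Without a filter on dim entries, limma gave 3 of 115 star entries an unadjusted p under 0.05, beside 3.44% of all 611 entries, and called none (adjusted p = 0.976). They were miR-140*, miR-15b* and miR-34c*, named after their values were seen. miR-15b* read 3.48, 3.29 and 6.69 units on controls 1 to 3 and 2.39, 2.16 and 2.22 on the TGFβ arrays. miR-34c* read -1.33, -6.59 and -7.68 units on controls and between 1.36 and 2.61 on TGFβ arrays. Neither carried any detection call, so these values give no direction.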

How the data were processed

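Cy3-labelled total RNA of 6 samples was hybridised to 1-colour Agilent miRNA arrays, all on 1 slide, per the file headers. Each deposited scanner file gives a spot's intensity after Agilent Feature Extraction subtracted background, per the file headers, with no scaling across arrays. These give version 10.7.3.1, and the submitters' processing notes 10.1.1. Other deposited columns used were flags, per the file headers. The deposited series value table held the same intensities (largest absolute difference 0). No spot was saturated.

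Spots were averaged per probe without outlier spots, then probes per miRNA. As scale of an array served the 75th percentile (249.5 to 402.4 units) of 105 probes that were well above background everywhere, and signals were multiplied by the geometric mean of these scales. A floor of 1 was set and log2 taken. A miRNA was tested if well above background on all 3 arrays of a group. The group test was that of limma (version 3.58.1, R 4.3.3, lmFit, eBayes, two-sided, Benjamini-Hochberg over all tested, threshold 0.05). Single values were tested by exact permutation tests. limma was also run on simulated independent noise with upward shifts. That noise holds no array that deviates as control 1 does and no shared deviation of same-numbered arrays, so the run cannot show how limma handles them. The number of arrays limits the precision.

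Same-numbered samples deviated together (r of 0.38, 0.37 and 0.52, each over 0.1, though control 2 and TGFβ 3 also had 0.38), so the replicate number was used as a block in an alternative. Alternatives changed scaling, background correction, floor, probe summary, filters, blocks and arrays. Named were stars well above background on any array, those with the brightest guides and the star of highest mean signal in each listed family. miR-31*, miR-191*, miR-30b*, miR-30c-1*, miR-30c-2*, miR-30e* and the others with the detected call were chosen after their values were seen. Members and lists were chosen with earlier results of these data known. Of 115 members, 101 matched a RefSeq sequence by name. Builds differ (the headers name an older one), so no coordinates are given.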

Additional observations from a re-analysis of the deposited data

How the results depend on the processing

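The count of star entries well above background depends on the rule. It was 4 as reported, 2 where all spots of a probe had to carry the flag, 34 where any spot sufficed, 1 where all probes had to pass, 11 with the software's detected call (chosen after seeing the data), and 2 to 4 with each array left out in turn. Over all miRNAs limma called 0 with all arrays, 1 with the replicate block, 3 with the slide row as a block, and 0 to 31 with each array left out, where 31 came without control 1. Star entries called ranged from 0 to 1 over the arrays left out, and were 0 under all other settings, including the replicate block, where miR-30a* had a limma adjusted p of 0.447. The difference of miR-674* turned to 0.0539 with arrays left unscaled, where the median of all tested miRNAs was 0.26 in place of -0.09. That of miR-30a* was negative in all 19 alternatives that gave it, between -1.16 and -0.26. A filter on all 6 arrays, or on all spots of a probe, left no star to test. The ratio of miR-30a* to miR-30a did not separate the groups in any of 11 alternatives. The replicate block leaves a difference of means as it is, and the ratio was tested within pairs only by sign flips. No star was well above background on all 6 arrays. Signal near background on at least 1 array therefore limits what can be compared between groups for every member, miR-30a* on control 1 included.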

Other observations

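Of 62 hairpins with both arms on the array under -5p and -3p names, 17 had an arm well above background on any array and 1 had both arms on the same array. Of the 93 star and guide pairs, 32 had a strand well above background and 2 had both.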
